A study of Mus musculus with 12 samples.

Results

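The immediate early genes analysed were Fos, Fosb, Jun, Junb, Egr1, Egr2, Nr4a1, Arc, Npas4 and Ier2. They are 10 of the 38283 genes with an FPKM value (a gene's fragments scaled by its transcript length and by how many fragments its library mapped), and were taken by gene symbol, each of which named 1 row. RNA came from the hypothalamic arcuate nucleus (ARC) of 5 wild-type (WT) and 7 homozygous R299Q γ2 AMPK knock-in (Homo) mice, all C57BL/6 males aged 8 weeks and fed ad libitum, with 1 library per mouse. The knock-in replaces a residue of the γ2 subunit of the energy-sensing kinase AMPK in every tissue, so nothing here is restricted to one cell type, and the level of the targeted gene does not check the genotype labels. The ARC was captured by laser from 14 μm cryosections and its RNA was amplified before sequencing. The libraries therefore held neurons, glia and vascular cells together, and fewer expressing cells and less RNA per cell cannot be told apart.

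Immediate early genes are transcribed within minutes of a stimulus without new protein synthesis. Calcium entry and kinase cascades phosphorylate factors already on their promoters, among them CREB, which binds cyclic AMP response elements, and the ternary complex of SRF and ELK1, which binds CArG boxes. Most of the products are transcription factors that act on later genes, and their transcripts are short-lived. In the ARC, FOS is widely used as a marker of activated neurons, AGRP and POMC neurons included, after fasting or feeding hormones. The question was whether these genes differed between the genotypes in fed mice, and whether they moved together from mouse to mouse.

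The promoters of 4 members are shown for the elements through which these genes are induced. Egr2, Jun and Junb had the highest mean correlation with the other members among those with a promoter sequence in the table used. Fos was added after the values had been seen, as the marker read as protein in the study. Each line gives the 250 bases before the transcription start, 5′ to 3′ on the gene's strand, from RefSeq (GRCm38.p6). Capitals mark matches to the cyclic AMP response element (CRE) half-site (TGACG, or CGTCA on the other strand), the CArG box, the TATA box (TATAA, gene strand only) and the CCAAT box (CCAAT or ATTGG).
Fos, chr12:85473640-85473889, plus strand: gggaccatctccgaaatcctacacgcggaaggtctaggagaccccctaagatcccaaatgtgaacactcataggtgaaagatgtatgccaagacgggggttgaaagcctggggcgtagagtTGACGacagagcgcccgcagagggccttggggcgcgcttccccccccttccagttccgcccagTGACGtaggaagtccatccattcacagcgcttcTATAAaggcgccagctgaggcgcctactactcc
Jun, chr4:95052223-95052472, minus strand: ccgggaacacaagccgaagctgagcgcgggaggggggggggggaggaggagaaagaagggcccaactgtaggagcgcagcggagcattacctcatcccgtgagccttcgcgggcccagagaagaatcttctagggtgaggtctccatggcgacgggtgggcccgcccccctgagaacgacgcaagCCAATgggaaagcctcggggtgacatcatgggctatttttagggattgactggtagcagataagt
Junb, chr8:84978749-84978998, minus strand: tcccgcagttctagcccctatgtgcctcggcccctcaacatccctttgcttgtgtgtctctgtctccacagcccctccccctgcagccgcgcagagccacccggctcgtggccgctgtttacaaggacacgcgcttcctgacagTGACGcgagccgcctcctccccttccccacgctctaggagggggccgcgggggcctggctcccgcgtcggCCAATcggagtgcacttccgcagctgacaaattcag
Egr2, chr10:67537619-67537868, plus strand, 1 of 5 listed starts: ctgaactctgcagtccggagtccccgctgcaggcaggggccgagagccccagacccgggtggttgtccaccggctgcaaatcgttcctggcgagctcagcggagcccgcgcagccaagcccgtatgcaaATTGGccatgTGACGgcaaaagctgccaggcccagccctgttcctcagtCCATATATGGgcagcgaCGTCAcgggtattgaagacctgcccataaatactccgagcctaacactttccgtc

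Promoters were matched by symbol for 7 of the 10 members, and matches were sought in the 250 bases before and 50 bases after each start. A CRE half-site was present for 6 of the 7, against 23.0% of the 27025 genes in the promoter table. Fos held it at -129 and -66 from its start, with a TATA box at -33. Egr2 was the only one of the 7 with a CArG box in that window, at -72 in the start shown and between its CRE half-sites at -111 and -55. Of all genes, 1.81% held that box. Sequence farther than 250 bases upstream was not searched, so Fos and the others cannot be said to lack a CArG box. The member without a CRE half-site was Jun, whose window held a CCAAT box alone of the elements searched. The full palindromic CRE (TGACG followed by TCA), present for 2.03% of all genes, and the AP-1 site (TGANTCA), present for 8.97%, were found in 0 of the 7. Variants of these patterns were not counted, such as the tgacatca in the printed Jun sequence, a single letter away from the full CRE. The letters TATAA were present for 4 of the 7 against 20.0% of genes, and a CCAAT box for 3 against 41.1%. TATAA lay at -33 in Fos and -26 in Npas4. In Junb it lay at 1, on the start itself, and in Egr2 at -11 of a start other than the one shown. Egr2 had 5 starts and so more sequence searched than a gene with a single start. A match is a description of letters, not evidence of a bound site.

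Ranked by how many genes were above 0, the libraries fell into 2 sets on either side of the widest gap. The set with fewer genes held WT 1, WT 2 and Homo 1 to 5, with 15742 to 16467 genes, and the set with more held WT 3 to 5, Homo 6 and Homo 7, with 18141 to 18635. As judged from the smallest steps between low values, a single fragment on 1 kb of transcript was worth 0.154 to 0.33 FPKM in the first set and 0.0829 to 0.119 FPKM in the second by this estimate. Only 23.2% to 48.0% of the low values in the first set and 45.6% to 68.7% in the second lay on such a step, where 20% would lie by even spacing. The estimate is therefore weak, above all in WT 2, Homo 2 and Homo 3, no difference in depth can be taken as settled, and fragment numbers below are approximate. The ARC neuropeptides were abundant in every library, with Agrp at 181 to 597, Npy at 514 to 1800 and Pomc at 190 to 1350 FPKM. The lowest Pomc was in WT 3.

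Jun and Egr1 were the most abundant members in these fed mice, and Fosb, Arc and Npas4 the least. Mean FPKM over the 12 libraries was 14.5 for Jun, 11.6 for Egr1, 3.74 for Fos, 2.96 for Junb, 2.54 for Nr4a1, 1.19 for Egr2 and 0.933 for Ier2. The last of the order were Npas4 at 0.517, Arc at 0.514 and Fosb at 0.364. Egr1 exceeded Fos, the next in order, in 11 of 12 libraries. Every other neighbouring pair overlapped, the upper gene being higher in 6 to 9 of 12 libraries, so the rest of the order was not separated beyond the spread between mice. Among genes above 0 in any library, Jun stood at percentile 81.4 and Fosb at percentile 30.3. Jun, Junb, Fos, Egr1 and Nr4a1 were above 0 in all 12 libraries. Of the 120 values for the 10 members, 15 were listed at 0, of which 14 lay among the 70 values of the set with fewer genes and 1, Egr2 in Homo 7, among the 50 values of the other set.

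**Figure D1:**
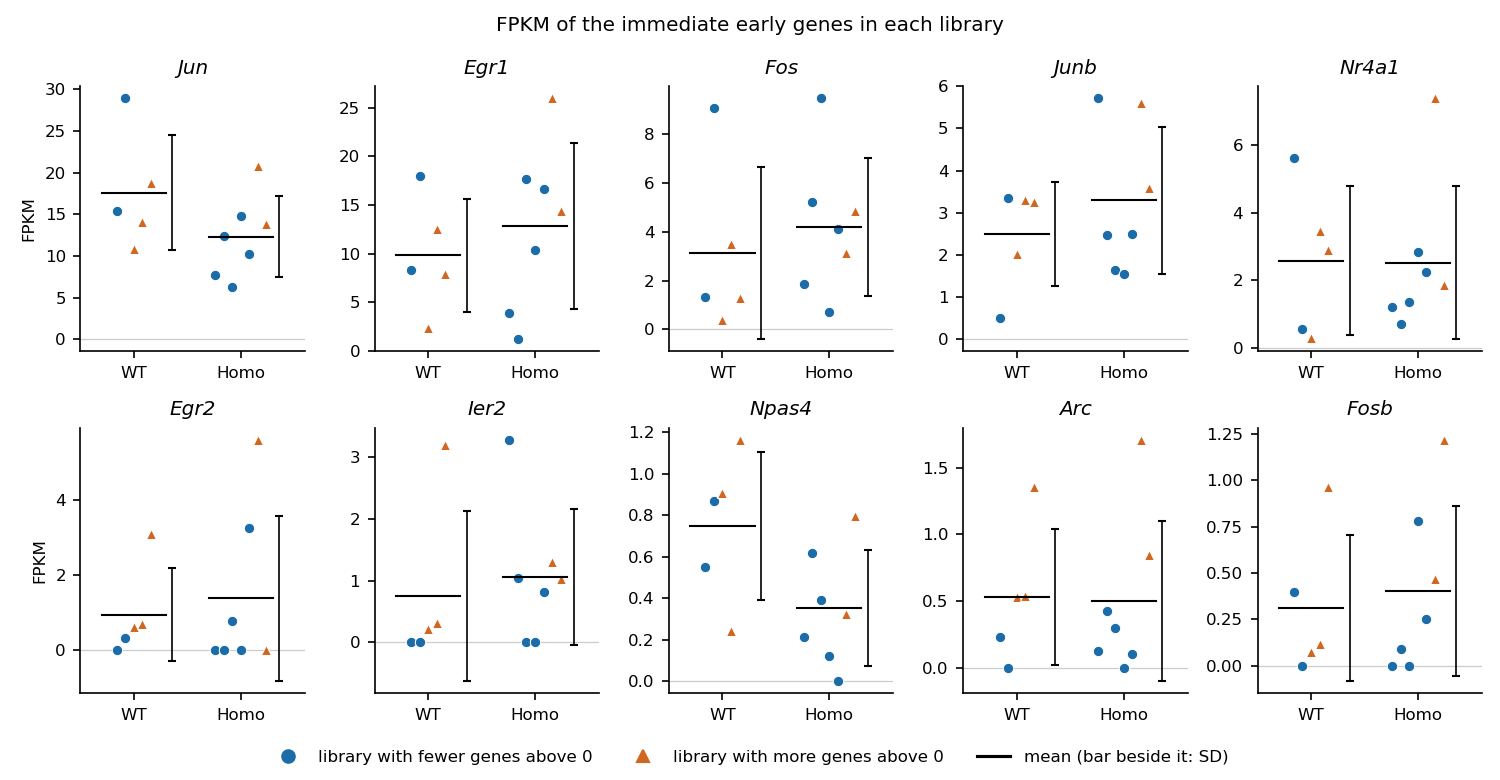
FPKM of each immediate early gene in each library, by genotype, with genes ordered by mean level and a separate linear axis for each gene. Points are libraries, shaped by library set, lines are means and the bar beside each is the SD (n = 5 WT, 7 Homo). The genotypes overlap for every gene, and Homo 6, from the set with more genes above 0, is the highest library for Egr1, Nr4a1, Egr2 and Arc.

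No difference between Homo and WT passed the test for any member. Of the 6 with a mean FPKM of at least 1, which were tested in limma with 14017 genes in all, 0 had an adjusted p under 0.05 and 0 had an unadjusted p under 0.05. Over all genes tested, 0.00713% passed the adjusted threshold (1 gene, lower in Homo) and 5.55% the unadjusted one. Of the 10 members, 7 had a higher mean in Homo on the log2(FPKM + 1) scale, against 49.3% of all genes tested. The 10 include members with a mean FPKM under 1, which the genes tested exclude. The median difference was 0.12 for the 6 tested members and -0.0062 for all genes tested. Over the 10 members it was 0.065, with individual differences from -0.50 to 0.50. Both the tally and the sign of the median depended on the libraries: 5 of 10 were higher with a median of -0.063 in the 7 libraries with fewer genes, 9 of 10 with a median of 0.39 in the other 5, and 3 of 10 with a median of -0.18 when Homo 1 to 5 were set against WT. The median was also below 0 without WT 2 (-0.034), WT 3 (-0.016) or Homo 6 (-0.11). On this scale, low levels give understated differences. The intervals were wide: for Fos the 95% interval ran from -0.56 to 1.56, and so held changes of either sign.

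The AP-1 transcription factors are dimers of FOS and JUN family proteins. Fos, whose protein needs a JUN partner to bind DNA (ENSMUSG00000021250, chr12:85473890-85477273, plus strand), was at 1.33, 9.06, 0.389, 3.48 and 1.29 FPKM in WT 1 to 5. In Homo it ranged from 0.731 in Homo 4 to 9.47 in Homo 3, with a median of 4.10. Both genotypes thus held libraries near the bottom and near the top of the range, which spanned 24.4-fold, and 6 of 7 Homo values exceeded the WT median. Means were 3.11 ± 3.52 FPKM in WT and 4.19 ± 2.82 in Homo (SD, n = 5 and 7). The difference was 0.50 (SE 0.495) on the log2 scale, with an adjusted p of 0.923 in limma and an exact two-sided permutation p of 0.38 over every assignment of the 12 libraries to 5 and 7. It was -0.14 in the set with fewer genes and 1.02 in the other, and the interaction of genotype with set had an adjusted p of 0.907 in limma. Between 4 and 111 fragments lay behind these values.

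Fosb, a close paralog of Fos with a longer-lived splice form (chr7:19302696-19310051, minus strand), was among the lowest. It was at 0.397, 0, 0.0727, 0.118 and 0.966 FPKM in WT 1 to 5, and in Homo at 0 to 1.22 with a median of 0.252. The 3 libraries listed at 0 were WT 2, Homo 1 and Homo 3, all in the set with fewer genes. With a mean FPKM under 1 it was left out of the main test, and in a fit of 23611 genes without that limit, where 0.00424% of genes passed adjustment, 4.51% had an unadjusted p under 0.05 and 0 of the 4 low members had one, its difference was 0.08 (SE 0.243; adjusted p = 0.955 in limma).

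Jun, the most abundant of the AP-1 subunits among the 10 members (ENSMUSG00000052684, chr4:95049034-95052222, minus strand, a single exon), was at 15.5, 29.0, 10.9, 14.1 and 18.8 FPKM in WT 1 to 5. In Homo it ranged from 6.24 in Homo 3 to 20.8 in Homo 6, with a median of 12.5. Only 1 of 7 Homo libraries exceeded the WT median, although the ranges overlapped. Means were 17.6 ± 6.95 and 12.3 ± 4.88 FPKM, and the difference was -0.50 (SE 0.292; adjusted p = 0.915 in limma; exact permutation p = 0.138). Among the 7 libraries with fewer genes it was -1.03, with an adjusted p of 0.815 in limma (0.0315 before adjustment). Jun was the 1 of the 6 tested members at an unadjusted p under 0.05 there, against 5.98% of all genes. In the other 5 libraries it was 0.24, so Jun was lower in Homo in one set and higher in the other. In the 5 libraries 0 of the 6 members had an unadjusted p under 0.05, against 5.07% of all genes. The interaction of genotype with set for Jun had an adjusted p of 0.876 in limma (0.0376 before adjustment). The highest WT value in the first set was WT 2, 1 of its only 2 WT libraries, and without it the difference over the remaining 11 libraries was -0.31. Jun overlaps the antisense transcript Junos, and without strand information in the table their fragments cannot be told apart.

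Junb, an AP-1 subunit that can restrain JUN (chr8:84974484-84978718, minus strand), was at 0.511, 3.35, 2.04, 3.30 and 3.26 FPKM in WT 1 to 5, and in Homo at 1.55 to 5.72 with a median of 2.50. WT 1 was the lowest library and Homo 1 and Homo 6 the highest. The difference was 0.30 (SE 0.345; adjusted p = 0.927 in limma), and was 0.46 and 0.53 in the library sets with fewer and more genes. Without WT 1 it was 0.023. Its locus overlaps Prdx2 on the other strand, so its values may include fragments of that gene.

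The EGR proteins are zinc-finger factors induced through the SRF complex. Egr1 (ENSMUSG00000038418) was at 8.30, 18.0, 2.38, 12.5 and 7.89 FPKM in WT 1 to 5, and in Homo at 1.19 to 26.0 with a median of 14.4. Homo 6 held the highest value and Homo 2 the lowest, so the Homo mice bracketed all WT mice. Means were 9.82 ± 5.83 and 12.9 ± 8.51 FPKM, and the difference was 0.20 (SE 0.592; adjusted p = 0.987 in limma; exact permutation p = 0.768). It was -0.68 in the set with fewer genes and 1.46 in the other, with an adjusted p of 0.876 for the interaction in limma. Between 33 and 1343 fragments lay behind the values, and the SD within genotype, 1.15 on the log2 scale, stood at percentile 90.4 of all genes tested.

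Egr2, which is also a regulator of myelination in peripheral nerve (chr10:67535475-67542188, plus strand), was listed at 0 in WT 1, Homo 1, Homo 2, Homo 4 and Homo 7. It reached 3.09 FPKM in WT 5, 3.26 in Homo 5 and 5.59 in Homo 6, and the other 4 libraries lay between 0.322 and 0.767. Both genotypes thus held libraries at 0.767 FPKM or less and at 3.09 or more, with none between. Of the 5 libraries at 0, 4 were in the set with fewer genes. By the rough estimate, WT 3 and WT 4 held 19 and 21 fragments, against 38 in Homo 5. The difference was 0.03 (SE 0.584; adjusted p = 0.995 in limma), and it was -0.58 with a pseudocount of 0.1 in place of 1.

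Nr4a1, an orphan nuclear receptor induced by calcium and cyclic AMP (chr15:101254269-101274795, plus strand), was at 5.62, 0.571, 0.312, 3.47 and 2.90 FPKM in WT 1 to 5. In Homo it was at 0.715 to 7.38 with a median of 1.85, the highest again in Homo 6. The means nearly coincided, at 2.58 ± 2.198 and 2.52 ± 2.26 FPKM, and the difference was 0.05 (SE 0.457; adjusted p = 0.994 in limma).

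Npas4, a neuronal transcription factor switched on by calcium entry and largely restricted to neurons (chr19:4984355-4990316, minus strand), was the member with the most separated genotypes. It was at 0.552, 0.867, 0.909, 0.241 and 1.16 FPKM in WT 1 to 5, and in Homo at 0 to 0.796 with a median of 0.323. None of the Homo libraries, 0 of 7, exceeded the WT median, while WT 4 lay below the Homo median. Means were 0.746 ± 0.356 and 0.352 ± 0.279 FPKM, and the difference of -0.37 (SE 0.208) had an adjusted p of 0.878 in the limma fit without the limit on low values and an exact permutation p of 0.0657. It was negative in both library sets, at -0.44 and -0.16. At most 35 fragments lay behind any of these values, and in Homo 4 only about 1.

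Arc encodes a capsid-like protein of synapses whose RNA moves into dendrites (chr15:74669083-74672570, minus strand). It was at 0.230, 0, 0.533, 0.541 and 1.35 FPKM in WT 1 to 5, and in Homo at 0 to 1.71 with a median of 0.297. The difference was -0.05 (SE 0.284; adjusted p = 0.976 in the limma fit without the limit on low values). Within each library set it was positive, at 0.09 and 0.34, and Homo 1 to 5, which make up most of the set with fewer genes, were at 0 to 0.425 FPKM.

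Ier2, a small nuclear protein of the growth-factor response (chr8:84661331-84662852, minus strand, a single exon), was listed at 0 in WT 1, WT 2, Homo 3 and Homo 4. It was at 0.223, 0.310 and 3.20 FPKM in WT 3 to 5, and reached 3.28 in Homo 1. The highest values were thus 1 library of each genotype, from different library sets. The difference was 0.34 (SE 0.43; adjusted p = 0.887 in the limma fit without the limit on low values), and it ranged from 0.14 without Homo 1 to 0.72 without WT 5.

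**Figure D2:**
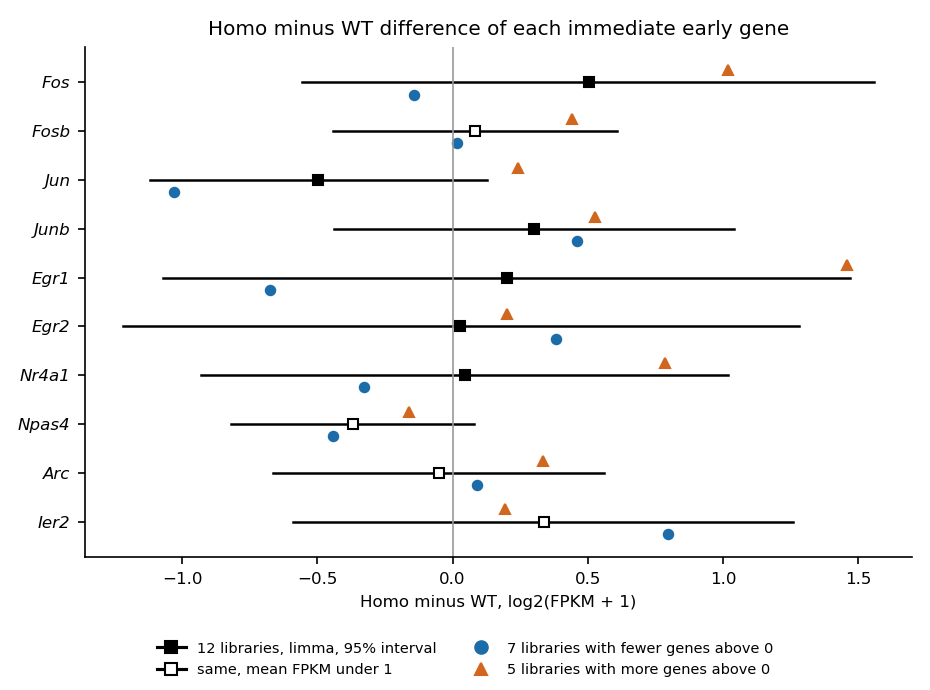
Homo minus WT difference in mean log2(FPKM + 1) of each immediate early gene, with the 95% interval from limma over 12 libraries, and the same difference in the 7 libraries with fewer genes above 0 (circles) and the 5 with more (triangles). Every interval crosses 0, and the differences of Fos, Jun, Egr1 and Nr4a1 are negative in the first set and positive in the second.

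The library set itself was not a passing term for any of the 6 members tested: with genotype in the model, 0 of 6 had an adjusted p under 0.05, against 0.178% of all genes (25 genes) in limma, and 0 of 6 had an unadjusted p under 0.05, against 8.42%. The set with more genes was higher by 0.86 for Egr2 (unadjusted p = 0.168), 0.61 for Junb (unadjusted p = 0.0929), 0.42 for Nr4a1, 0.32 for Egr1 and 0.15 for Jun. For Fos it was lower, at -0.37. With the set in the model, the median Homo minus WT difference over the 10 members was 0.25. Drawn by the number of genes at an FPKM of at least 1 instead, the widest gap set Homo 3 alone apart. That fit gave 0.090, the same as leaving Homo 3 out, and so is not a second grouping of the libraries.

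The members did not form a tightly co-varying group. After removal of the genotype means, the median Pearson's r over their 45 pairs was 0.232, 35 pairs were positive, and 0 reached 0.7. Over all 98231136 pairs of genes tested, the median was 0.069, 57.5% were above 0 and 1.95% reached 0.7. The pairs share genes and libraries, so they are not independent. No pair passed adjustment over the 45 (smallest adjusted p = 0.674, permutation test with 100000 resamples), and 1 pair had an unadjusted p under 0.05.

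That pair was Junb and Ier2 (r = 0.663, permutation p = 0.037; rho = 0.618, permutation p = 0.0374). It gave r = 0.582 without the 2 libraries farthest from the median for Junb and 0.588 with the library set removed as well. Those 2 were picked by Junb alone, and so need not be the farthest for Ier2. Arc and Egr2 followed at r = 0.595 (permutation p = 0.0509; rho = 0.359, permutation p = 0.262), but r was -0.183 within the 7 libraries with fewer genes. Egr1 and Nr4a1 were at r = 0.524 (permutation p = 0.0858; rho = 0.35, permutation p = 0.278), which fell to 0.155 without the 2 libraries farthest for Egr1. The lowest pair was Nr4a1 and Npas4 at r = -0.378 (permutation p = 0.257; rho = -0.434, permutation p = 0.2).

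Arc had the highest mean r with the other 9 members, 0.353, followed by Egr2 at 0.276, Jun at 0.258 and Junb at 0.23. Fos had the lowest, -0.00305, and its r was 0.407 with Egr1 but -0.356 with its paralog Fosb. With the library set removed as well, Npas4 had the lowest mean r (0.00467) and Fos was at 0.0849. Within the 7 libraries with fewer genes, the median r over the 45 pairs was -0.10, so the positive tendency over 12 libraries was not seen there. The other set holds 5 libraries, too few for a correlation.

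**Figure D3:**
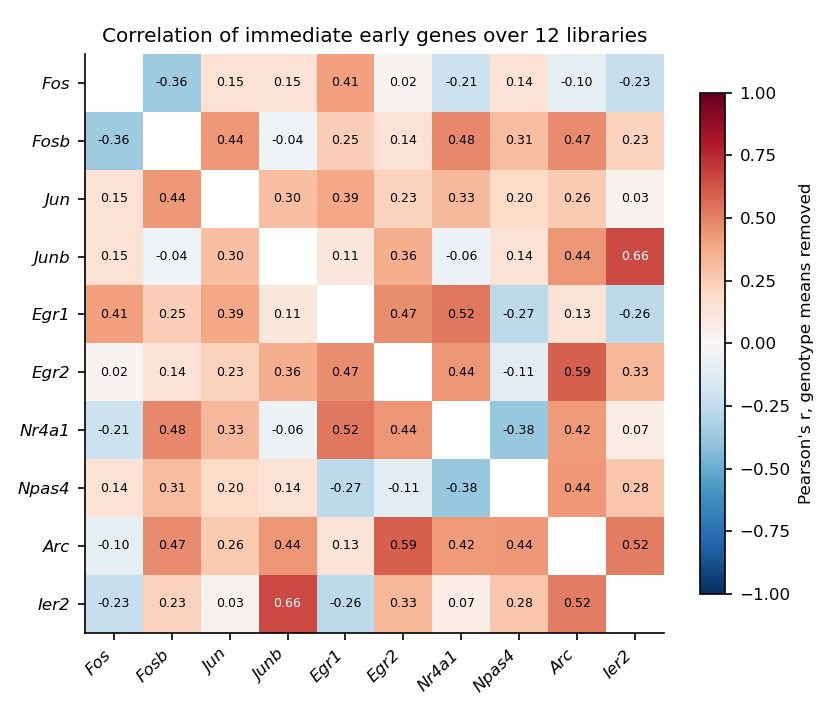
Pearson's r of log2(FPKM + 1) between each pair of immediate early genes over 12 libraries, after removal of the genotype means (colour scale from -1 to 1, diagonal left blank). Most squares are weakly positive, Junb with Ier2 is the strongest at 0.663, and the row of Fos is mixed in sign.

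A mean z score over the 10 members was used to describe each mouse. It was highest in Homo 6 (1.01), WT 5 (0.815) and Homo 7 (0.462), all from the set with more genes, and lowest in WT 3 (-0.564) of that same set. The libraries with fewer genes lay closer together, between -0.434 and 0.0881. Homo 6 was among the 3 highest libraries for 7 of the 10 members and WT 5 for 6. The score followed the number of genes above 0 (r = 0.648 with genotype removed, 0.194 with the set removed too), so a part of its spread moved with the library set.

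Of 34 other immediate early genes, 23 had a mean FPKM of at least 1, among them the AP-1 subunit Jund, the nuclear receptor Nr4a2 and Dusp1, a phosphatase that switches off MAP kinases. The mean of these 23 moved with the score over all libraries and gave r = 0.801 (rho = 0.839) over 12 libraries, 0.834 with the library set removed and 0.667 without WT 5 and Homo 6, the farthest from the median. Within the 7 libraries with fewer genes r was -0.55, so the relation rested on the 5 others, among which WT 3 was lowest for both measures and Homo 6 highest for both. No p-value is given, since the members were chosen as a group. Of the other pathway lists, the delayed activity-regulated genes, which follow the first wave, gave the highest r, 0.685. It was 0.728 with the set removed and 0.39 without WT 5 and Homo 6. The remaining pathway lists gave 0.0928 to 0.518. The mean of the neuron markers gave r = 0.582, of the astrocyte markers 0.524 and of the microglia markers 0.529. With the set removed too, the neuron markers gave 0.766 and the arcuate markers 0.884, the latter against 0.212 before and -0.154 without WT 3. Pomc gave r = 0.513, which was 0.911 with the set removed and 0.374 without WT 3. Agrp gave -0.62, which was -0.128 with the set removed and -0.934 without WT 3. Npy gave -0.191, which was 0.436 with the set removed and -0.699 without WT 3. The values for these neuropeptides and the arcuate markers thus moved widely with the library set and, less so for Pomc, with WT 3. The astrocyte and microglia markers moved less, at 0.585 and 0.461 with the set removed and 0.421 and 0.442 without WT 3.

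**Figure D4:**
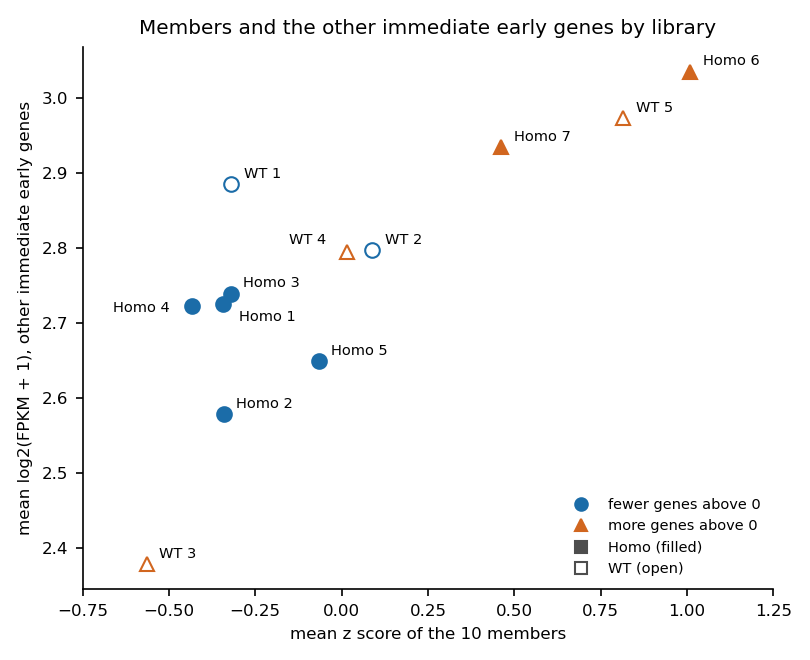
Mean z score of the 10 members (x axis) against the mean log2(FPKM + 1) of the 23 tested genes of the list of other immediate early genes (y axis), with 1 point per library, shaped by library set and filled for Homo. Homo 6, WT 5 and Homo 7 lie at the top right and WT 3 at the bottom left, while the 7 libraries with fewer genes form no rising line.

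The 10 genes whose log2 levels were most alike to the score over the 12 libraries, among the tested genes outside the member, pathway and marker lists, were D330045A20Rik (r = 0.928), Trim32 (0.92), AC154473.1 (0.916), BC032203 (0.912), Mtmr4 (0.892), Sec14l1 (0.885), Dgkk (0.884), Fam179b (0.88), Mtmr10 (0.88) and Pds5a (0.879). They were the highest of the unlisted genes among the 14017 tested, so high values were to be found whatever the score. The members and all genes of the lists used were left out before the ranking. The absence of listed immediate early genes from the 10 is therefore not a result.

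The rest of the pathway was read from fixed lists. Upstream transcription factors had 0 of 16 genes past the adjusted threshold, 4 higher and 12 lower in Homo. Elk1, the SRF partner phosphorylated by ERK, was the 1 with an unadjusted p under 0.05: it was at 6.80 to 11.96 FPKM in WT and 3.61 to 8.96 in Homo, and 0 of 7 Homo libraries exceeded the WT median. Its difference was -0.63 (SE 0.233; unadjusted p = 0.0169, adjusted p = 0.854 in limma; exact permutation p = 0.0177). Mef2d, a calcium-responsive factor of neurons, was at -0.44 (adjusted p = 0.903 in limma) and its relative Mef2c at -0.38 (adjusted p = 0.916 in limma).

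Among 22 upstream kinases and calcium signalling genes, 11 were higher and 11 lower, and 1 had an unadjusted p under 0.05. This was Map2k2, which encodes the kinase MEK2 of the ERK cascade, at 6.62 to 18.4 FPKM in WT and 15.1 to 28.4 in Homo. The WT median was exceeded in 7 of 7 Homo libraries, and the difference was 0.56 (SE 0.233; unadjusted p = 0.0292, adjusted p = 0.891 in limma). Mapk3, which encodes ERK1, was at -0.35 (adjusted p = 0.915 in limma; -0.50 and 0.19 in the sets with fewer and more genes) and Rps6ka1, which encodes the kinase RSK1 below ERK, at -0.52 (adjusted p = 0.915 in limma). The 13 AP-1 and EGR partners had 0 genes under an unadjusted p of 0.05, and Nab1, a corepressor of EGR proteins, was at 0.43 (adjusted p = 0.916 in limma). In that list Ddit3, a stress-induced bZIP factor, was at 0.56 (adjusted p = 0.919 in limma) and Nfe2l2, the oxidative stress factor NRF2, at -0.25 (adjusted p = 0.923 in limma).

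Of the 34 other immediate early genes, 15 were higher and 19 lower, 0 of the 23 tested passed adjustment and 1 had an unadjusted p under 0.05. This was Myc, a factor of growth and ribosome production, at 1.47 to 7.80 FPKM in WT and 4.81 to 31.3 in Homo. Means were 4.44 ± 2.39 and 13.2 ± 10.4 FPKM, and the WT median was exceeded in 7 of 7 Homo libraries. The difference was 1.21 (SE 0.446; unadjusted p = 0.0162, adjusted p = 0.851 in limma; exact permutation p = 0.0354), and it was 1.39 and 0.95 in the library sets with fewer and more genes. Ppp1r15a, a phosphatase subunit of the stress response, was at 0.61 (adjusted p = 0.915 in limma) and Fosl2, an AP-1 subunit, at -0.46 (adjusted p = 0.917 in limma; -0.71 and 0.067 in the library sets).

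The 16 delayed activity-regulated genes, which follow the first wave, had 7 higher and 9 lower and 0 of 10 tested past adjustment. Homer1, whose short form uncouples synaptic scaffolds, was at 9.18 to 16.4 FPKM in WT and 3.79 to 11.8 in Homo, where 1 of 7 libraries exceeded the WT median. Its difference was -0.90 (SE 0.274; unadjusted p = 0.00527, adjusted p = 0.763 in limma; exact permutation p = 0.0152), and -1.02 and -0.26 in the library sets. A gene-level FPKM does not separate the induced short form from the constitutive long one. Mfap3l was at -0.32 and Nptx2, a secreted synaptic pentraxin, at -0.56, both with an adjusted p of 0.915 in limma. Nptx2 was at -1.05 and 0.14 in the library sets, so its sign was not shared by them.

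Lists for handling and stress were included because these genes respond to them. Of 8 heat shock genes, 3 were higher and 5 lower, and Hsph1, an HSP70 exchange factor, was the 1 with an unadjusted p under 0.05, at -0.63 (unadjusted p = 0.0213, adjusted p = 0.856 in limma). Dnajb1 was at 0.53 (adjusted p = 0.903 in limma) and Hsp90aa1 at -0.24 (adjusted p = 0.915 in limma), so these chaperones did not share a direction over the 12 libraries. In the set with fewer genes all 3 were negative (Hsph1 -0.52, Dnajb1 -0.080, Hsp90aa1 -0.18), while Dnajb1 was at 0.88 in the other set. Of 8 glucocorticoid-responsive genes, 6 were higher and 2 lower with 0 under an unadjusted p of 0.05, and Ddit4 was at 0.52 (adjusted p = 0.908 in limma), Tsc22d3 at -0.18 (adjusted p = 0.946) and Nr3c1, the receptor itself, at 0.10 (adjusted p = 0.964). Ddit4 was at -0.081 and 0.90 in the sets with fewer and more genes and Tsc22d3 at -0.40 and 0.17, so both changed sign between them. In all, 5 of the 95 genes tested from these pathway lists had an unadjusted p under 0.05, or 5.26%, against 5.55% of all genes.

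Markers of the cell types in the captured tissue were read beside the members. The neuron markers were higher in Homo for 6 of 8 genes (median difference 0.10), the astrocyte markers for 6 of 8 (0.23), the oligodendrocyte markers for 8 of 8 (0.37) and the microglia markers for 8 of 8 (0.42), with 3 of the microglia genes at an unadjusted p under 0.05. The arcuate markers were higher for 8 of 8 (0.43), with 2 at that level, and 0 genes of any marker list passed adjustment in limma. Endothelial and mural markers were higher for 4 of 8 (-0.036), ependymal and tanycyte markers for 3 of 8 (-0.097) and pituitary markers for 1 of 8 (-0.20). Of the ependymal and tanycyte markers, 1 was at that level, Crym, lower in Homo (-0.98, unadjusted p = 0.0329 in limma). Over all genes tested, 5.55% were at that level and 49.3% were higher in Homo. The part of these markers in the members' levels was not tested.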

How the data were processed

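RNA-seq was performed on laser-captured ARC of 5 WT and 7 Homo mice. Per the labels, RNA was amplified with the NuGEN RNAseq v2 system and sheared to 200 bp. The submitters' processing notes name TopHat2 2.0.8, Cufflinks 2.2.1 and GRCm38, without settings. The authors deposited 1 table of FPKM values, without counts; amplification and FPKM scaling leave duplicates unseen and depth open to rough estimates only, and each gene's value depends on what else was captured. The members, gene lists, tests and library sets were chosen with earlier results of these data known.

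Values were taken as log2(FPKM + 1). The 14017 of 38283 genes that averaged at least 1 FPKM were fitted in limma 3.58.1 (R 4.3.3; lmFit, eBayes with trend and robust variances) with genotype as the term and Benjamini-Hochberg adjustment at 0.05. The 4 members below that mean were taken from the same fit over the 23611 genes above 0. Exact two-sided permutation tests used every assignment of the 12 libraries to 5 and 7 (smallest p 0.0013). Pair correlations used residuals from genotype means, with permutation p-values. The z score averages members standardised over the libraries. Scripts were tested on simulated data. Named genes were all members, up to 3 genes per pathway list by smallest unadjusted p, the 10 genes most alike to the score, and Agrp, Npy and Pomc. Gene positions are from GENCODE M21 (GRCm38). Alternatives covered scaling, filters, library sets and omitted libraries. Python 3.11.15 and matplotlib 3.10.9 were used.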

Additional observations from a re-analysis of the deposited data

Results flagged for a closer look

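Each of the 10 members was examined in each genotype, 20 groups in all, for a library standing apart from the rest of its group (Dixon's test at the 95% level, which chance passes in about 1 of 20 groups). The 1 group that did, on the log2(FPKM + 1) scale, was Ier2 in WT. There WT 5 was at 2.07 (3.20 FPKM) and the other WT libraries were at 0 to 0.39 (0 to 0.310 FPKM). The gap was 0.812 of the range on the log2 scale, against a critical value of 0.71. Gaps on the FPKM scale differ, so the count of groups applies to the log2 scale only. Without WT 5, the Homo minus WT difference of Ier2 was 0.72 on the log2 scale, against 0.34 with it. It was 0.14 without Homo 1, the other high library, and 0.20 without either WT 1 or WT 2. WT 5 was also among the 3 highest libraries for 6 of the 10 members. Its part in the other differences was not tested beyond leaving it out.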

How the results depend on the processing

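No member had an adjusted p under 0.05 in limma in any of the 238 refits of single members (smallest adjusted p 0.675), and the directions of Junb, Npas4 and Ier2 were the same in each of theirs. Among the 7 libraries of the set with fewer genes, the direction turned for Fos (-0.14), Egr1 (-0.68), Nr4a1 (-0.33) and Arc (0.091), and in the 5 with more genes for Jun (0.24) and Arc (0.34). With Homo 1 to 5 only it turned for Fosb (-0.087), Egr1 (-0.17), Egr2 (-0.19) and Nr4a1 (-0.22). Egr2 turned with a pseudocount of 0.1 (-0.58), and Arc with quantile normalization (0.026), median centring (0.0049) and the library set in the model (0.20). Leaving out 1 library at a time gave -0.037 to 0.24 for Fosb, -0.17 to 0.58 for Egr1, -0.29 to 0.34 for Egr2, -0.25 to 0.33 for Nr4a1 and -0.21 to 0.12 for Arc. Without a change of sign it gave 0.20 (without WT 3) to 0.92 (without WT 2) for Fos, 0.023 (without WT 1) to 0.41 for Junb, 0.14 (without Homo 1) to 0.72 (without WT 5) for Ier2, -0.64 to -0.31 (without WT 2) for Jun and -0.49 to -0.29 for Npas4. The median over the 10 members ranged from -0.11 to 0.21 in the same way. The cause was not tested.

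The count of all genes passing adjustment, 1 in the main test, was 6 in the 7 libraries, 19 in the other 5 and 4 with Homo 1 to 5, and 1 to 3 when a library was left out, with 3 without WT 2 and 2 without Homo 4. Genes of the pathway lists with an unadjusted p under 0.05 numbered 3 to 7 when a library was left out, with 3 without WT 3, against 5. The median r of the members was -0.10 in the 7 libraries. The r between the score and the other immediate early genes was 0.64 after quantile normalization, -0.55 in the 7 libraries and, in a check added after seeing the data, 0.667 without the 2 farthest libraries.

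Replicate numbers 1 to 5 are shared by the genotypes. Deviations of same-numbered libraries correlated at -0.0537 to 0.0288 and none correlated best with its own number. No pairing by number was seen, though so few libraries cannot exclude one. With a replicate block 2 genes passed, against 4 in the same 10 libraries without the block, and in the block the member differences were -0.087 for Fosb, -0.17 for Egr1, -0.19 for Egr2 and -0.22 for Nr4a1. Low counts limit Fosb, Arc, Npas4, Egr2 and Ier2 most, where several values rest, by the rough estimate, on under 10 fragments.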
